A study of Mus musculus with 49 samples.

Results

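Tumour necrosis factor (TNF) and the interleukin 6 family of cytokines were followed through 10 genes: the ligands Tnf, Il6, Lif and Osm, the receptor chains Tnfrsf1a, Tnfrsf1b, Il6ra, Il6st and Osmr, and the feedback inhibitor Socs3. Probe sets annotated to exactly 1 of these symbols were taken, and a gene was represented by whichever of its probe sets was brightest on average over the 49 arrays. This gave 8 of the 10 genes, through 11 probe sets, among 8251 genes and 12488 probe sets in all. Lif and Osm are not analysed here, because no probe set was annotated to either of them alone.

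The arrays came from a time course of arthritis in mice given serum of K/BxN animals, whose autoantibodies inflame the joints of a healthy recipient. All recipients were male, of B6 background and 6 weeks old, and the labels name no mutation in any group. Days count from the first serum injection. Cells of the synovial fluid gave 3 arrays each at days 3, 12 and 18 and 4 at day 7, and no fluid group of day 0 was among them. Whole ankle gave 4 arrays each at days 0 and 7, 3 each at days 3, 12 and 18 and 2 at day 1, and blood leukocytes gave 3 at each of days 0, 1, 3, 7 and 12 and 2 at day 18. The labels call replicates biological for blood alone, so p-values elsewhere measure a spread between samples that may be technical.

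TNF is made mainly by myeloid and lymphoid cells and signals through 2 receptors. TNFR1, encoded by Tnfrsf1a, is found on most cells, while TNFR2, encoded by Tnfrsf1b, is found mainly on immune and endothelial cells. Interleukin 6 binds Il6ra and then the shared signalling chain gp130, encoded by Il6st, whereas oncostatin M, the product of Osm, signals through gp130 paired with Osmr. Both receptor complexes activate STAT3, which induces Socs3, and SOCS3 in turn blocks gp130. In arthritic joints these cytokines act on macrophages, neutrophils and synovial fibroblasts.

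Levels are log2 of the deposited intensity, and a level of 1 probe set cannot be set against that of another. Negative control probe sets had their median at 4.40, and their 95th percentile, 6.85, is called the background level here. Where a group mean lay under 6.85 a difference is at best a lower bound, and a fold is given only where both means lay above it. The median intensity of an array was 57.7 to 64.1, and 4003 genes (48.5%) had no group mean above background. Of the 8 measured genes, 7 had at least 1 group mean above it, and the exception was Il6. The RNA of the tissues was prepared differently, so that tissue and preparation cannot be told apart. In 4 ankle arrays, replicate 1 of days 0, 1, 7 and 12, the liver gene Alb reached 6.39 to 10.65, and no other array of that tissue exceeded 5.19. The labelled tissues carried their own markers: the 8 monocyte and macrophage markers were all above background in fluid at each day, and the 8 neutrophil markers summed to an intensity of 10016 to 17989 in fluid, 732 to 4594 in ankle and 4612 to 15255 in blood.

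Tnf, the ligand of both TNF receptors, was highest in the cells of the fluid. Its level was 7.63, 6.95 and 7.34 on the 3 fluid arrays of day 3, and 7.23, 6.58, 6.55 and 6.43 on the 4 of day 7. It was 7.28, 6.69 and 6.93 at day 12, and 6.52, 6.80 and 7.00 at day 18. The means of day 3 and day 12, 7.31 and 6.97, were above background and those of day 7 and day 18, 6.70 and 6.77, just below it. In whole ankle its 19 arrays ran from 5.64 to 6.13 and in blood its 17 arrays from 5.75 to 7.18, so that all but 1 lay in the background range. That array was replicate 2 of blood day 18, at 7.18.

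Averaged over the matched days 3, 7, 12 and 18, Tnf was higher in fluid cells than in ankle by 1.01 ± 0.09 (limma, adjusted p = 2.0e-10), and the 13 arrays of fluid did not overlap the 13 of ankle. It was higher in fluid cells than in blood by 0.67 ± 0.11 (adjusted p = 1.2e-05), and here the arrays overlapped. Each of these differences is at best a lower bound, since the mean levels of Tnf in ankle and blood were within background. In ordered group means, the 4 fluid groups and blood of day 18 took the first 5 places, and neighbours among them overlapped.

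**Figure D1:**
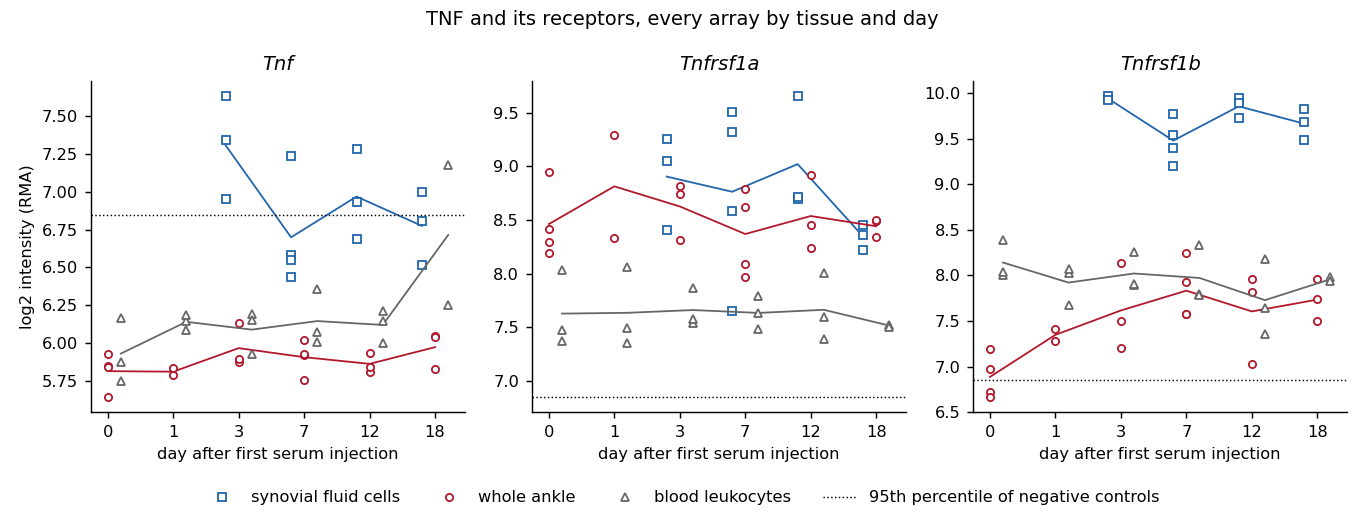
Log2 intensity of Tnf, Tnfrsf1a and Tnfrsf1b (y axes, each with its own scale) on every array by day after the first serum injection (x axis, equally spaced days), with lines through the group means. Fluid squares of Tnfrsf1b lie between 9.20 and 9.97, above every ankle circle and blood triangle, and the dotted line marks the background level of 6.85.

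Il6, the founding ligand of the family, was not measured above background. Its level ran from 2.91 to 4.13 on fluid arrays, 2.60 to 3.87 on ankle arrays and 2.74 to 3.50 on blood arrays, all below the median of the negative controls. Differences in Il6 given below are therefore differences within background, and no fold is attached to them.

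The TNF receptors differed in where they were found. Tnfrsf1b had a level of 9.20 to 9.97 in fluid cells (median 9.78, 13 arrays), 6.66 to 8.25 in ankle (median 7.50, 19 arrays) and 7.36 to 8.39 in blood (median 7.98, 17 arrays). No fluid array overlapped an array of the other tissues. Over the matched days it was 4.11 times as high in fluid cells as in ankle (log2 difference 2.04 ± 0.11, limma, adjusted p = 1.3e-14) and 3.52 times as high as in blood (1.82 ± 0.10, adjusted p = 1.3e-14). At day 0 it was lower in ankle than in blood (log2 difference -1.26 ± 0.23, adjusted p = 4.6e-05), with means of 6.89 in ankle and 8.14 in blood and arrays that did not overlap.

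Tnfrsf1a showed a different order, with fluid and ankle close together above blood. Its level was 7.65 to 9.65 in fluid cells (median 8.69), 7.97 to 9.29 in ankle (median 8.45) and 7.35 to 8.06 in blood (median 7.54). It was 2.20 times as high in fluid cells as in blood (log2 difference 1.14 ± 0.17, adjusted p = 2.6e-06) and, at day 0, 1.78 times as high in ankle as in blood (0.83 ± 0.24, adjusted p = 0.0049). The fluid and ankle arrays overlapped, and their difference of 0.26 ± 0.17 did not pass the test (adjusted p = 0.25). The other probe set of Tnfrsf1a stayed at 3.97 to 5.2 on all arrays, within background, and showed none of these calls. Over the 49 arrays the 2 probe sets had a Pearson correlation of -0.58, so that the order of tissues rests on 1 probe set.

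The 2 chains of the interleukin 6 receptor had opposite distributions. Il6ra, the chain that binds interleukin 6 itself, had a level of 7.43 to 8.43 in fluid cells (median 7.95), 6.18 to 7.34 in ankle (median 6.46) and 7.65 to 8.60 in blood (median 8.23). Fluid cells and blood overlapped, and their difference of -0.14 ± 0.12 did not pass the test (adjusted p = 0.32). Fluid was higher than ankle by 1.41 ± 0.13 (limma, adjusted p = 5.9e-10), and ankle at day 0 was lower than blood (-1.66 ± 0.25, adjusted p = 1.9e-06), with no overlap in either case. The ankle mean was within background at every day, from 6.25 to 6.80.

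Il6st, the shared gp130 chain, was highest in ankle. Its level was 7.09 to 8.63 in fluid cells (median 7.99), 9.08 to 10.35 in ankle (median 9.70) and 6.06 to 7.71 in blood (median 6.81). In fluid cells it was 0.301 times the ankle level (log2 difference -1.73 ± 0.14, limma, adjusted p = 2.2e-11), and in ankle at day 0 it was 6.24 times the blood level (2.64 ± 0.30, adjusted p = 2.1e-08), with no overlap in either comparison. Fluid was higher than blood by 1.14 ± 0.18 (adjusted p = 5.2e-06), although the arrays overlapped. The other probe set of Il6st lay at 4.63 to 5.50 on all arrays, within background, and had differences of 0.03 for fluid cells against ankle, -0.01 for ankle against blood at day 0 and -0.06 for fluid cells against blood.

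Osmr, the oncostatin M receptor chain, was also highest in ankle and stayed within background in blood. Its level was 4.58 to 7.35 in fluid cells (median 6.69), 5.70 to 8.32 in ankle (median 7.77) and 3.63 to 4.40 in blood (median 3.99). It was lower in fluid cells than in ankle (-1.33 ± 0.21, adjusted p = 6.5e-06), with overlapping arrays. It was higher in fluid cells than in blood by 2.25 ± 0.11 (adjusted p = 1.5e-15), and in ankle than in blood at day 0 by 3.08 ± 0.36 (adjusted p = 3.6e-08), with no overlap in either case. Ankle at day 0 had a mean of 6.83 and was itself at the background level. With values under background raised to it, the differences from blood were 0.09 in fluid cells (adjusted p = 0.080) and 0.31 in ankle at day 0 (adjusted p = 0.44), and neither passed the test.

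Socs3, the inhibitor that gp130 signalling induces, had a level of 7.64 to 9.18 in fluid cells (median 8.44), 5.92 to 9.11 in ankle (median 8.04) and 6.20 to 8.47 in blood (median 7.04). Over the matched days it was 2.37 times as high in fluid cells as in blood (log2 difference 1.24 ± 0.18, limma, adjusted p = 2.3e-06). Its difference between fluid cells and ankle, 0.19 ± 0.18, did not pass the test (adjusted p = 0.44), nor did that between ankle and blood at day 0 (-0.23 ± 0.39, adjusted p = 0.68). Its other probe set gave 0.54 ± 0.12 for fluid cells against blood (adjusted p = 0.00049), which is the same direction and a smaller size. The main probe set carries the suffix that the maker gives to sets whose probes are shared with related sequences, and the other does not.

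In counts, 7 of the 8 genes were higher in fluid cells than in blood and 0 lower, where 58.8% of all genes passed the test, 24.8% higher and 34.0% lower. One of the 7 was Il6, whose difference of 0.30 ± 0.10 (adjusted p = 0.012) lay wholly within background. The median difference was 1.14 over the 8 genes and -0.08 over all genes. Against ankle, 3 were higher in fluid cells and 2 lower, where 38.1% of all genes passed, 18.7% higher and 19.4% lower. Between ankle and blood at day 0, 5 of the 8 differed, where 42.2% of all genes did. With shares this high, a call between tissues says little about these genes beyond their size. T and B cell and red cell markers were high in blood, monocyte and macrophage markers in fluid, and fibroblast and endothelium markers in ankle, and their part in these differences was not tested.

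**Figure D2:**
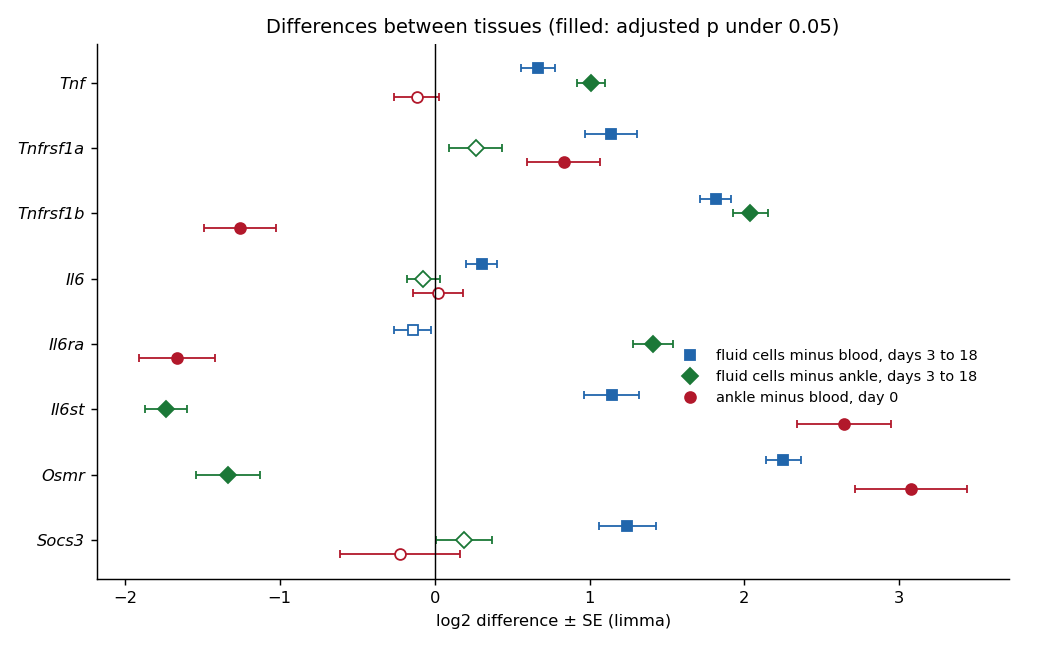
Log2 difference (x axis) with its standard error from limma for the 8 genes (y axis) in 3 tissue comparisons, with filled symbols where the adjusted p was under 0.05. Tnfrsf1b differs most between fluid cells and ankle (2.04), Osmr and Il6st between ankle and blood (3.08 and 2.64), and Il6ra does not differ by the test between fluid cells and blood.

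In the inflamed ankle, Socs3 and Tnfrsf1b rose above day 0, and Socs3 did so most. The calls of both were lost without the 4 ankle arrays that carried liver transcripts, as given below. The level of Socs3 was 6.34, 7.47, 5.92 and 7.41 on the 4 arrays of day 0, 7.74 and 7.72 at day 1, and 7.83, 9.07 and 7.87 at day 3. The 4 arrays of day 7 had 8.72, 8.46, 8.41 and 8.05, the 3 of day 12 had 9.11, 8.42 and 8.53, and the 3 of day 18 had 8.04, 7.48 and 8.60. With this main probe set, every array of each later day lay above all 4 of day 0, and at day 18 the nearest pair lay at 7.48 and 7.47.

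Socs3 differed from day 0 by 0.95 ± 0.42 on day 1 and 1.47 ± 0.37 on day 3, by 1.62 ± 0.35 on day 7 and 1.90 ± 0.37 on day 12, and by 1.25 ± 0.37 on day 18. It passed the test at day 7 (limma, adjusted p = 0.0071) and at day 12 (adjusted p = 0.0068), and not at day 1 (1.00), day 3 (0.13) or day 18 (0.11). Since the mean of day 0 was 6.79, at the background level, these sizes are at best lower bounds. The other Socs3 probe set had 7.74, 7.51 and 7.84 at day 12, against 6.92, 6.68, 6.48 and 6.95 at day 0. It rose by 0.94 ± 0.16 at day 12 (adjusted p = 0.0018) and by 0.67 ± 0.16 at day 18 (adjusted p = 0.030), both less than the main one, while its 0.49 ± 0.15 at day 7 just missed the threshold (adjusted p = 0.050). Without replicate 2 of day 0 the main probe set differed by 1.48 at day 18, with an adjusted p of 0.046. On the other probe set the 2 arrays of day 1, at 6.78 and 6.84, lay within the range of day 0. Its differences were 0.06 ± 0.18 at day 1 and 0.51 ± 0.16 at day 3, and neither passed the test. The probe sets correlated at 0.76 over the 49 arrays.

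Tnfrsf1b, the TNFR2 gene, moved less, and in the fit reported here it was called at day 7 alone among the 5 later days. Its level was 6.97, 7.19, 6.72 and 6.66 on the arrays of day 0, 7.28 and 7.41 at day 1, and 8.14, 7.50 and 7.2 at day 3. It was 8.25, 7.93, 7.57 and 7.58 at day 7, 7.96, 7.82 and 7.03 at day 12, and 7.50, 7.74 and 7.96 at day 18. All arrays after day 0 lay above those of day 0 except replicate 3 of day 12. At day 7 it was 1.93 times its level at day 0 (log2 difference 0.95 ± 0.23, adjusted p = 0.016). The mean of day 0, 6.89, lay only just above background, and its arrays at 6.72 and 6.66 lay below. The differences of 0.72 ± 0.25 at day 12 (adjusted p = 0.13) and 0.85 ± 0.25 at day 18 (adjusted p = 0.097) did not pass the test, and without replicate 3 of day 12 that day's difference was 1.01 (adjusted p = 0.046). The day 18 difference passed under quantile normalization anew (adjusted p = 0.046), the replicate block (0.044), a single fit of all arrays (0.014) and array weights (0.00079). The day 12 difference passed under the last 2 of these (0.036 and 0.00069). In the fit with array weights, 2592 and 1540 of all genes were called at days 12 and 18, against 267 and 166 in the main fit.

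Il6 had a level of 3.48, 3.62, 3.87 and 3.50 at day 7, against 3.1, 2.60, 3.05 and 2.88 at day 0, which did not overlap. Its difference of 0.71 ± 0.16 passed the test (adjusted p = 0.011), as did 0.65 ± 0.17 at day 12 (adjusted p = 0.048), but both sides lay below the median of the negative controls. The call at day 12 was lost in 14 of the 19 fits that left out 1 array, with adjusted p of up to 0.25. With the beta-actin 3' to 5' ratio as a covariate the calls of both days were lost, at 0.65 for day 7 (adjusted p = 0.091) and 0.58 for day 12 (adjusted p = 0.30).

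The other receptors gave no call in ankle in the main fit. Osmr had a level of 7.77, 7.83 and 7.81 at day 18, against 5.70, 7.82, 6.71 and 7.11 at day 0, and its differences from day 0 were 0.58, 0.74, 0.72, 0.87 and 0.97 at days 1, 3, 7, 12 and 18. Its day 0 arrays spanned more than the difference itself, and no adjusted p was under 0.39. Tnf, Tnfrsf1a, Il6ra and Il6st had differences between -0.44 and 0.43 at all 5 days, none of which passed. With array weights in limma, Il6st passed at day 3 (0.60, adjusted p = 0.036) and Il6ra at day 12 (-0.48, adjusted p = 0.032). Osmr then passed at day 12 (1.13, adjusted p = 0.0042) and day 18 (0.91, adjusted p = 0.019). That setting called 526 of all genes at day 3, against 19 in the main fit.

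Counted over the 8 genes, 0 passed at day 1, where 0.0% of all genes did, and 0 at day 3, where 0.23% did. At an unadjusted p under 0.05, limma gave 1 of the 8 and 150 of all genes at day 1, and 3 of the 8 and 711 of all genes at day 3. At day 7, 3 were higher and 0 lower, where 6.73% of all genes passed, 3.09% higher and 3.64% lower. At day 12, 2 were higher and 0 lower, where 3.24% passed, 1.87% higher and 1.37% lower. At day 18, 0 passed, where 2.01% of all genes did, and 4 of the 8 and 971 of all genes had an unadjusted p under 0.05. Between day 18 and day 7, 0 passed, where 0.0606% of all genes did, and 0 of the 8 and 436 of all genes had an unadjusted p under 0.05. The median difference of the 8 genes was 0.41 at day 7 and 0.36 at day 12, against 0.00 and -0.03 over all genes.

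In whole ankle, a gain of cells that carry a transcript and more of it per cell cannot be told apart. The 8 neutrophil markers summed to an intensity of 732 to 804 on day 0 arrays, 2782 to 4459 on day 7, 2120 to 3338 on day 12 and 3393 to 4594 on day 18 arrays, and 4 of the 8 rose at day 7 and at day 12. The 8 monocyte and macrophage markers summed to 2192 to 4081 at day 7, against 2683 to 3396 at day 0, and 2 of the 8 rose at day 7. The part of these cells in the changes of Socs3 and Tnfrsf1b was not tested. The log2 ratio of 3' to 5' beta-actin probe sets, a sign of RNA quality, was 3.15 to 4.25 after day 0, against 2.73 to 3.50 at day 0. With it as a covariate Socs3 differed by 1.80 at day 7 (adjusted p = 0.026) and by 2.14 at day 12 (adjusted p = 0.041), and Tnfrsf1b by 0.82 at day 7 (adjusted p = 0.14). Without the 4 arrays that carried liver transcripts, Socs3 differed from day 0 by 1.37 at day 7 (adjusted p = 0.052) and by 1.54 at day 12 (adjusted p = 0.065), and Tnfrsf1b by 0.84 at day 7 (adjusted p = 0.058). Tnfrsf1b at day 7 also missed the threshold without replicate 3 or replicate 4 of day 0 (adjusted p = 0.055 and 0.059).

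**Figure D3:**
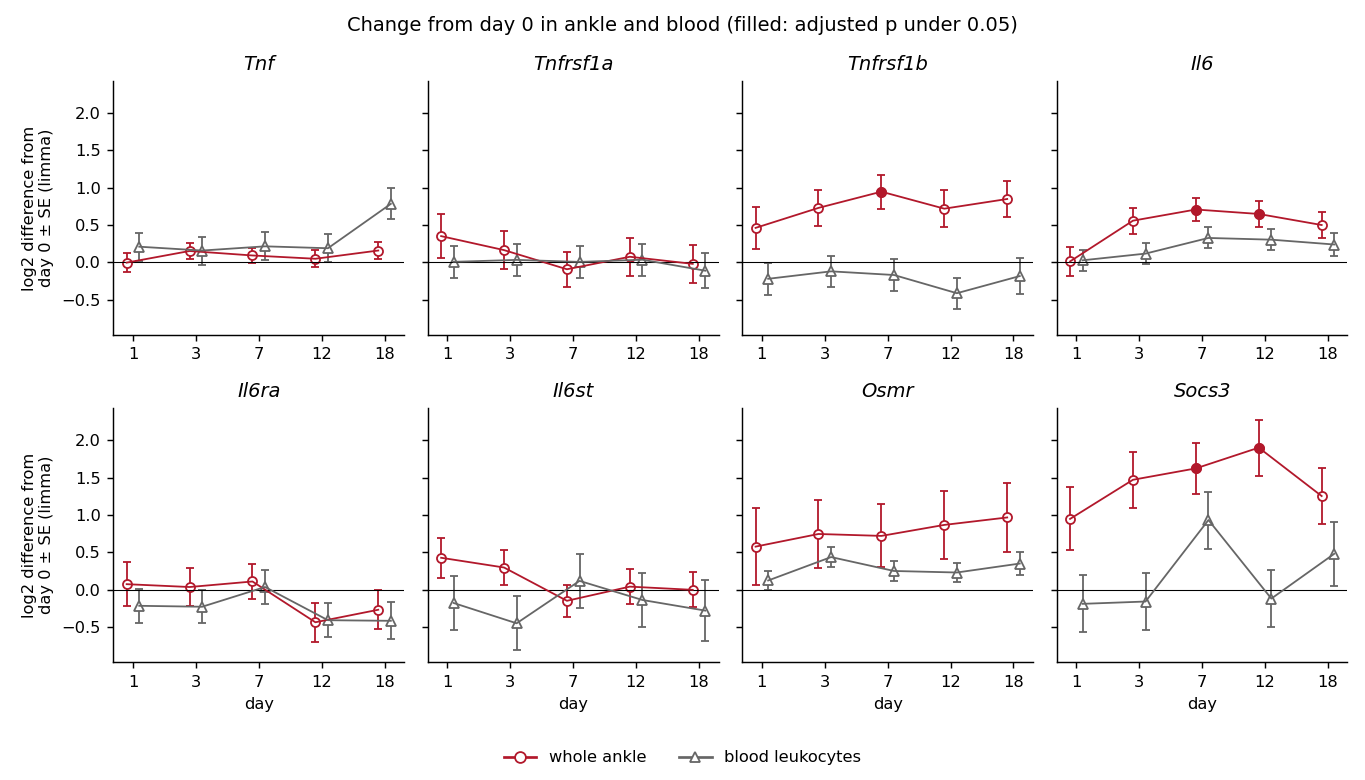
Log2 difference from day 0 with its standard error from limma (y axis) for the 8 genes at days 1, 3, 7, 12 and 18 (x axis) in whole ankle and blood leukocytes, with filled symbols where the adjusted p was under 0.05. Socs3 in ankle reaches 1.90 at day 12, and the filled points are Socs3 and Il6 at days 7 and 12 and Tnfrsf1b at day 7.

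The 3 genes called in ankle at day 7 were searched, because STAT3 and NF-kB are the factors these cytokines activate. Shown are the 250 bases before the start that the RefSeq promoter table of build GRCm38.p6 uses. Both strands were searched for the STAT letters TTCNNNGAA and for the NF-kB consensus, and matches are in capitals.
Socs3: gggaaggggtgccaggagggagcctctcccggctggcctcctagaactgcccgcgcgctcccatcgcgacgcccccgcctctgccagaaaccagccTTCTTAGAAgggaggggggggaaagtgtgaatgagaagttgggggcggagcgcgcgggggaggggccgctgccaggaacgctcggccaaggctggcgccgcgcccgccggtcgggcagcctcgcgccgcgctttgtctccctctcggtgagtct
Tnfrsf1b: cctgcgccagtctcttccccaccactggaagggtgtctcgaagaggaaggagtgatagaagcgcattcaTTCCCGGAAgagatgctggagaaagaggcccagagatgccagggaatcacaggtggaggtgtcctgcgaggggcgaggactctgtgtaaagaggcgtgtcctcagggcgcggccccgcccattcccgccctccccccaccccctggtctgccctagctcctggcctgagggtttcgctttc
Il6: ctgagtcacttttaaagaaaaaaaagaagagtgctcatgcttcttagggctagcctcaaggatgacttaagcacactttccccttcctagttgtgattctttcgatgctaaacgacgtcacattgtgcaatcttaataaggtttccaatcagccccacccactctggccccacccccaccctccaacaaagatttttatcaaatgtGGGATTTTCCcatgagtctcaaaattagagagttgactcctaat
The Socs3 window is chr11:117969367-117969616 on the minus strand and its STAT match begins 154 bases before the start used by the table. This window lies inside the span that the gene table gives Socs3, 117966079 to 117970336 of chromosome 11. The bases before the upstream end of that span were not searched. The Tnfrsf1b window is chr4:145246871-145247120 on the minus strand, with a STAT match 181 bases before the start. The Il6 window is chr5:30012864-30013113 on the plus strand, with an NF-kB match 44 bases before the start and no STAT match. Of 32851 promoters, 7.02% held the STAT letters and 7.25% the NF-kB consensus. Among the other genes followed, Tnfrsf1a had a STAT match at 244 bases and Lif an NF-kB match at 178. Tnf, Il6ra, Il6st and Osmr had neither in this window, and Osm had no entry. The Osmr window, chr15:6874314-6874563 on the minus strand, also lies inside the span of its gene, 6813568 to 6874968. The bases before the upstream end of that span were not searched. A match describes the letters and shows no binding.

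In the fluid, Osmr rose after day 3 and no other of the 8 genes passed the test. Its level was 5.09, 5.10 and 4.58 on the 3 arrays of day 3, and 6.69, 7.02, 5.89 and 6.22 on the 4 of day 7. It was 6.54, 6.95 and 7.23 at day 12, and 7.35, 6.87 and 6.82 at day 18. Every later array lay above those of day 3, and the means of day 12 and day 18, 6.90 and 7.01, were the only ones above background. The rise from day 3 was 1.53 ± 0.25 at day 7 (limma, adjusted p = 0.0022), 1.98 ± 0.27 at day 12 (adjusted p = 0.00043) and 2.09 ± 0.27 at day 18 (adjusted p = 0.00028), each at best a lower bound. In each comparison 1 of the 8 genes passed, where 2.56% of all genes did at day 7, 2.7% at day 12 and 3.19% at day 18, the last with 2.28% higher and 0.909% lower. With values under background raised to it, Osmr passed at none of these days. The log2 ratio of 3' to 5' beta-actin probe sets was 1.59 to 2.39 at day 3 and 2.69 to 2.90 at day 7. At day 12 it was 1.88 to 3.02, and at day 18 it was 2.02 to 3.61.

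The summed intensity of fibroblast markers was, like Osmr, lower in the fluid at day 3 than later. The 6 markers Col1a1, Col3a1, Pdgfra, Pdpn, Thy1 and Cdh11 summed to an intensity of 1197 to 1772 on day 3 arrays, 4935 to 7333 on day 7, 4812 to 7753 on day 12 and 5249 to 6004 on day 18 arrays. Of the 6, Col1a1, Col3a1 and Pdgfra passed the test at day 7 and the last 2 also at days 12 and 18, with day 18 differences from day 3 of 2.47 ± 0.31 for Col3a1 (adjusted p = 0.00020) and 2.24 ± 0.33 for Pdgfra (adjusted p = 0.00086). Pdpn, Thy1 and Cdh11 had group means within background on all fluid days. The part of these cells in the change of Osmr was not tested. The 10 arrays after day 3 had marker sums of 4812 to 7753 and Osmr levels of 5.89 to 7.35. Among them the lowest Osmr level, on replicate 3 of day 7, came with a marker sum of 7333. The highest, on replicate 1 of day 18, came with a sum of 5452. Leaving out the fluid arrays of another preparation left Osmr at 1.62 at day 7 with an adjusted p of 0.076.

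**Figure D4:**
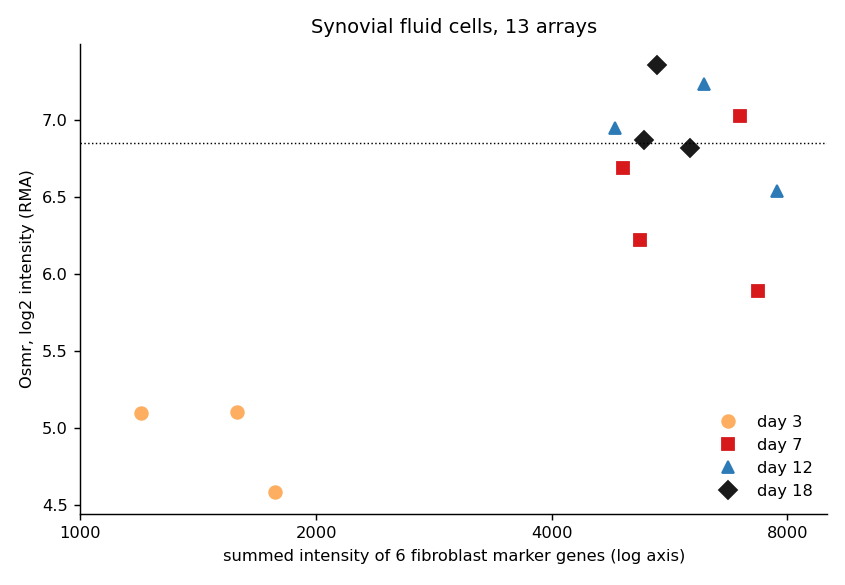
Log2 intensity of Osmr (y axis) against the summed intensity of 6 fibroblast marker genes (x axis, log scale) on the 13 fluid arrays, by day, with the background level of 6.85 dotted. The 3 arrays of day 3 lie apart at the lower left (Osmr 4.58 to 5.10), and the other 10 lie between 5.89 and 7.35.

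The other genes of the fluid gave values without a call. At an unadjusted p under 0.05, limma gave 4, 3 and 3 of the 8 genes, Osmr included, at days 7, 12 and 18 against day 3. Of all genes, 858, 1032 and 1247 did. Tnf differed by -0.61 ± 0.22 between day 7 and day 3 (limma, adjusted p = 0.26). Socs3 was 8.31, 7.64 and 8.12 at day 18, against 8.44, 8.73 and 9.08 at day 3, which did not overlap, and its difference of -0.73 ± 0.29 did not pass the test (adjusted p = 0.24). Its other probe set had a difference of -0.73 ± 0.31 (adjusted p = 0.28). Il6st was 0.80 ± 0.30 higher at day 12 than at day 3 (adjusted p = 0.25). Tnfrsf1b differed from day 3 without overlap at day 7 (-0.46 ± 0.18, adjusted p = 0.32) and day 18 (-0.28 ± 0.19, adjusted p = 0.57). Il6 did not overlap day 3 at day 7 or day 12, with differences of 0.54 and 0.57 that lay within background.

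**Figure D5:**
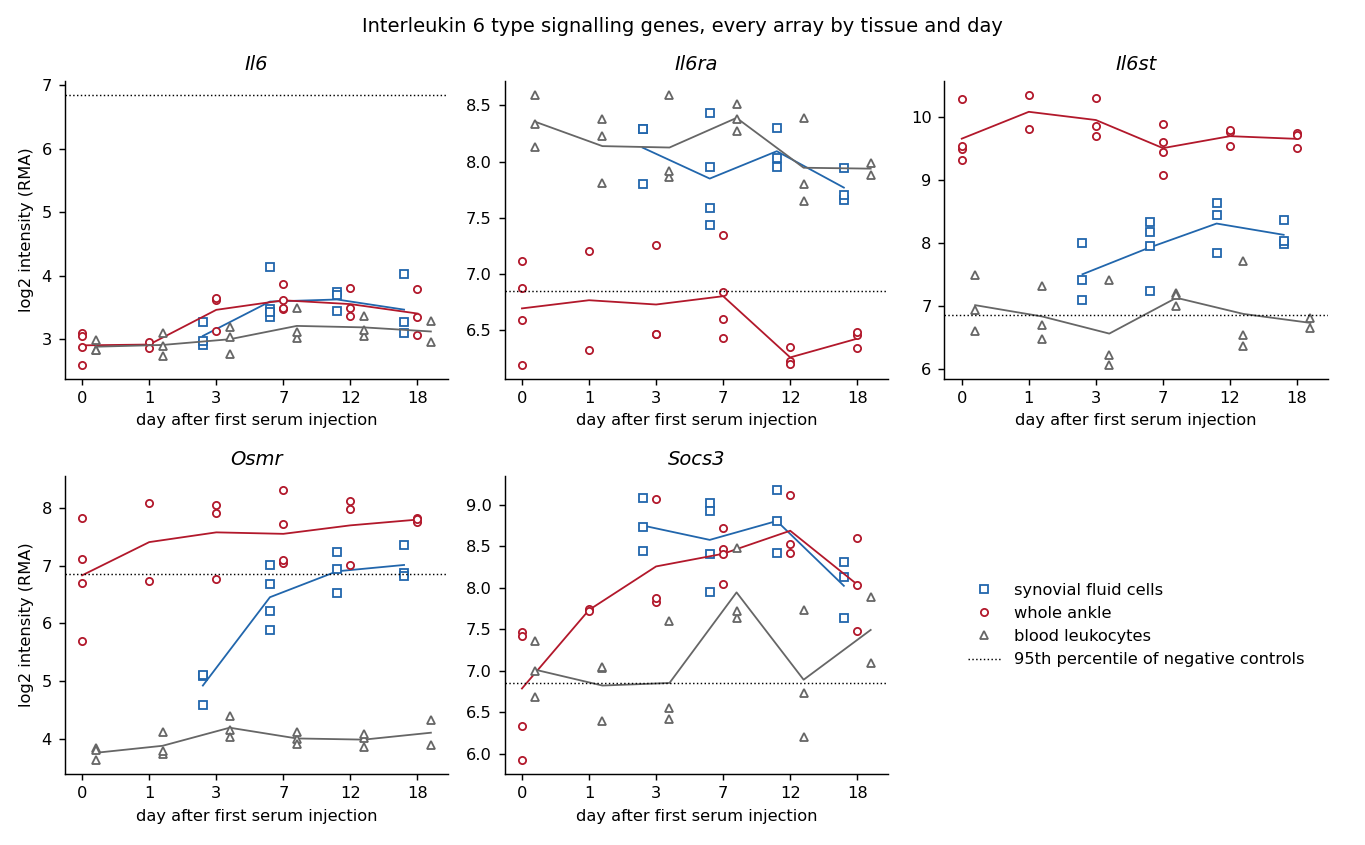
Log2 intensity of Il6, Il6ra, Il6st, Osmr and Socs3 (y axes, each with its own scale) on every array by day after the first serum injection (x axis, equally spaced days), with lines through the group means and the background level dotted. Il6st is highest in ankle, Il6ra is low in ankle, Osmr climbs in fluid cells after day 3, and Il6 lies far under the dotted line in all tissues.

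In blood, none of the 8 genes passed the limma test at any day. The same held for all genes, with 0.0% called at days 1, 3, 7, 12 and 18, while 589, 1702, 168, 513 and 1693 genes had an unadjusted p under 0.05. Of the 8 genes, 0, 1, 2, 1 and 2 did at these days. Socs3 had 7.64, 8.47 and 7.72 at day 7, against 7.36, 7.00 and 6.68 at day 0, which did not overlap, with a difference of 0.93 ± 0.38 (adjusted p = 1.00). Neutrophil markers in blood summed to 7923 to 15255 at day 7, against 4612 to 7733 at day 0, and their part in this was not tested. Tnf had 6.25 and 7.18 at day 18, against 5.87, 6.17 and 5.75 at day 0, a difference of 0.78 ± 0.21 (adjusted p = 0.22), which lay within background on all but 1 array. Without replicate 1 of day 18 that difference was 1.24 with an adjusted p of 0.049, and it then rested on a single array.

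The response of ankle was set against that of blood as the mean of days 3, 7, 12 and 18 less day 0. Tnfrsf1b changed by 0.81 in ankle and by -0.22 in blood, and the difference between these responses was 1.03 ± 0.26 (limma, adjusted p = 0.020). For Socs3 the response was 1.56 in ankle and 0.28 in blood, and the difference of 1.28 ± 0.44 did not pass the test (adjusted p = 0.10). It did pass without replicate 2 of ankle day 0 (adjusted p = 0.032) or replicate 1 of blood day 12 (adjusted p = 0.047). The other Socs3 probe set gave a smaller difference of 0.32 ± 0.15, which did not pass either (adjusted p = 0.25). Of the 8 genes 1 passed, where 4.12% of all genes did. The call of Tnfrsf1b was lost without replicate 3 or 4 of ankle day 0 or without replicate 1 of blood day 0, with adjusted p of 0.058, 0.059 and 0.10.

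Genes around the pathway were counted by the same test in lists chosen for their known roles, with earlier results of these data known. In ankle 6.73% (day 7), 3.24% (day 12) and 2.01% (day 18) of all genes passed that test. In ankle at day 7, 1 of 8 measured genes of the JAK and STAT chain rose and 0 fell, namely the kinase gene Jak2 (0.49 ± 0.14, limma, adjusted p = 0.041). Of 11 STAT3 target genes, 2 rose and 0 fell, Timp1, an inhibitor of metalloproteases (2.53 ± 0.23, adjusted p = 1.5e-06), and Il4ra, a receptor chain for interleukin 4 (1.13 ± 0.27, adjusted p = 0.014). Of 11 NF-kB target genes, 3 rose and 0 fell: Tnfaip6, a secreted hyaluronan binding protein (1.91 ± 0.22, adjusted p = 3.1e-05), Vcam1, an adhesion molecule (1.81 ± 0.30, adjusted p = 0.0011), and Sod2, a mitochondrial superoxide dismutase (0.92 ± 0.25, adjusted p = 0.029). The medians of these lists were 0.12, 0.36 and 0.06. None of 17 TNF receptor adaptors and NF-kB chain genes, 7 other inhibitors of the JAK and STAT chain, 3 other gp130 ligands, 3 other gp130 receptors, 4 genes of TNF shedding and mRNA decay or 3 lymphotoxin genes passed in either direction.

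At day 12 in ankle, the same count gave 1 of 11 STAT3 targets higher (Timp1, 2.08 ± 0.24, adjusted p = 5.1e-05) and 3 of 11 NF-kB targets higher, with 0 lower in both. These NF-kB targets were Tnfaip6 (2.32 ± 0.24, adjusted p = 9.2e-06), Vcam1 (2.00 ± 0.33, adjusted p = 0.0014) and Nfkbia, which encodes an inhibitor that holds NF-kB in the cytoplasm (0.84 ± 0.17, adjusted p = 0.0075). Of 7 other inhibitors 1 rose, the phosphatase gene Ptpn2 (0.69 ± 0.19, adjusted p = 0.049). At day 18, 1 of 11 STAT3 targets and 2 of 11 NF-kB targets were higher.

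In fluid at day 18 against day 3, where 3.19% of all genes passed (2.28% higher and 0.909% lower), 1 of 8 genes of the JAK and STAT chain fell, the adaptor gene Gab1 (-1.53 ± 0.25, limma, adjusted p = 0.0019), and 1 of 11 STAT3 targets fell, Il4ra (-1.40 ± 0.34, adjusted p = 0.034). Of 11 NF-kB targets 1 rose, Vcam1 (1.69 ± 0.37, adjusted p = 0.018), and of 4 genes of TNF shedding and decay 1 rose, Timp3, which inhibits the protease that releases TNF (1.84 ± 0.27, adjusted p = 0.00083). The fibroblast markers Col3a1 and Pdgfra rose in the same comparison, by 2.47 and 2.24, and the part of these cells in the changes of Vcam1 and Timp3 was not tested.

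Between fluid cells and blood, where 58.8% of all genes passed, 6 of 11 STAT3 targets were higher and 2 lower, led by Timp1 (3.09 ± 0.12, adjusted p = 1.3e-17), and 6 of 11 NF-kB targets were higher and 3 lower, led by Vcam1 (2.47 ± 0.15, adjusted p = 6.3e-14) and Tnfaip6 (2.61 ± 0.17, adjusted p = 5.3e-13). Of 8 JAK and STAT chain genes 3 were higher and 3 lower, and of 4 genes of TNF shedding and decay 2 were higher and 0 lower. Of 17 adaptors and NF-kB chain genes, 2 were higher and 6 lower, among them Traf5 (-1.53 ± 0.07, adjusted p = 4.9e-16). Among 3 other gp130 receptors, Lifr, the chain for leukaemia inhibitory factor, was higher (0.37 ± 0.11, adjusted p = 0.0043) and Il27ra lower (-1.57 ± 0.12, adjusted p = 1.5e-11), as was Cntfr (-0.30 ± 0.07, adjusted p = 0.00077). Of 7 other inhibitors, Socs2 (1.44 ± 0.13, adjusted p = 2.9e-10) and Ptpn1 were higher and Socs1 lower. The lymphotoxin gene Ltb was lower (-2.63 ± 0.13, adjusted p = 1.3e-15), beside the B and T cell markers that were high in blood.

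Between fluid cells and ankle, where 38.1% of all genes passed (18.7% higher and 19.4% lower), 7 of 11 NF-kB targets were higher and 1 lower, among them Ptgs2, which encodes an inducible cyclooxygenase (1.80 ± 0.21, adjusted p = 3.5e-08), and Nfkbia (1.22 ± 0.15, adjusted p = 1.2e-07). Of 11 STAT3 targets, 4 were higher and 1 lower, with the kinase gene Pim1 among the higher (1.13 ± 0.13, adjusted p = 4.7e-08). Of 3 other gp130 receptors 0 were higher and 2 lower, Lifr (-1.01 ± 0.14, adjusted p = 1.4e-06) and Il27ra (-0.51 ± 0.13, adjusted p = 0.0017). Zfp36, whose product destabilises Tnf mRNA, was higher by 1.43 ± 0.13 (adjusted p = 5.0e-10).

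Over the 16 group means, the genes whose levels followed Socs3 most closely among 4248 genes with a group mean above background were Hif1a, Sod2, Ccl2 and Uck2, with Pearson correlations of 0.90, 0.89, 0.89 and 0.88. For Osmr they were Lamb1, Ppic, Yap1 and Bgn, with correlations of 0.99 each. These points share tissues, so that differences between the 3 tissues weigh heavily in both.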

How the data were processed

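Each sample was hybridised to 1 Affymetrix mouse array, and the deposited table gives 1 linear intensity for each probe set, which the authors obtained by RMA, per the submitters' processing notes. RMA corrects background, quantile normalizes arrays and summarises probes. No source used here names its version. The labels' descriptions give an SDS and urea extraction for ankle, where their protocol field gives Trizol. Fluid day 3 and day 7 replicate 1 were washed out of the joint, and fluid day 7 replicate 4, day 18 replicate 3 and blood day 3 replicate 3 carry another description. Of 12488 probe sets, 10833 had 1 symbol in the platform annotation, 396 several and 1259 none or a control. Gene IDs were looked up in a RefSeq table of GRCm38.p6, where 16 were missing and 0 symbols changed. Background is the 95th percentile of 34 negative control probe sets. No pair of arrays was identical.

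Log2 intensities entered limma 3.58.1 (R 4.3.3, lmFit and trended eBayes), in which every tissue and day had its own mean and each tissue or pair of tissues its own fit. P-values were two-sided, Benjamini-Hochberg adjusted over 8251 genes, with a threshold of 0.05. Errors are limma standard errors. Fluid was compared with blood or ankle as an average of the differences at days 3, 7, 12 and 18. The number of arrays limits precision. The members and gene lists were chosen with earlier results of these data known. The text names all members, up to 4 genes of a list by smallest p, and the 4 genes most like Socs3 and Osmr. The fit was tested on simulated data. Alternatives were other scaling, low signal filters, probe set choice, array weights, a single fit, a replicate block, an RNA quality covariate, and arrays left out.

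Same-numbered samples deviated together in ankle day 3, blood days 1 and 3 and fluid day 7 against their first day. There every pair's correlation was over 0.1. In the other comparisons of 3 or more pairs with the first day, not every pair reached this. Ankle day 7 against day 0 had pairs at 0.61, 0.58, 0.03 and 0.41. Over all days, 26 of 41 pairs in ankle, 25 of 40 in blood and 7 of 18 in fluid were over 0.1. The main fit left the replicate number out. Ankle day 1 had only 2 pairs, at 0.71 and 0.73, and blood day 18 only 2, at 0.06 and 0.14. The labels do not say what a number shares.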

Additional observations from a re-analysis of the deposited data

Results flagged for a closer look

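Il6 on replicate 2 of fluid day 7 had a level of 4.13 and stood far from the other 3 arrays of its group, which lay at 3.35 to 3.48. The level is below the median of the negative controls. Groups of 4 arrays were examined for the 8 genes, 24 in all, and 1 stood out, where chance gives about 1 in 20.

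Tnfrsf1b differed in its response between tissues, by 1.03 ± 0.26 on the log2 scale for ankle less blood (limma, adjusted p = 0.020), with responses of 0.81 in ankle and -0.22 in blood. Adjusted p ran from 0.0075 to 0.10 when single arrays were left out.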

How the results depend on the processing

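Besides the fits that left out 1 array each (49), 11 settings were tried, and the other probe set of a gene was added after seeing the data. The members called in fluid cells against blood, fluid cells against ankle and ankle against blood at day 0 stayed at 7, 5 and 5 without any single array. Left-out arrays gave 2 to 3 members for ankle day 7, 1 to 2 for day 12, 0 to 1 for day 18, 0 to 1 for blood day 18 and 0 to 2 for the difference in responses. Array weights gave 4, 5 and 3 members for ankle days 3, 12 and 18, 3 each for fluid days 12 and 18, 2, 3 and 2 for blood days 3, 12 and 18, and 3 for the difference in responses; they called up to 3948 genes in blood, where the main count was 0. A single fit of all arrays gave 1 for ankle day 3, 2 for day 18 and 2 for fluid day 7. Without the arrays with liver transcripts 1 member was called in ankle at day 7 and 0 at day 12, and with the beta-actin 3' to 5' ratio as covariate 1 and 1. At ankle day 12 leaving out the dimmest genes, or a floor at background, gave 1. At day 18 quantile normalization anew, the mean of all probe sets and the replicate block gave 1 each. The floor gave 0 at fluid days 7, 12 and 18, since Osmr then barely moved, and there Osmr also lost its calls against blood (0.09 in fluid cells, 0.31 in ankle), and leaving out other preparations gave 0 at day 7. The replicate block changed no other member count, and it called 917, 500 and 413 of all genes at ankle days 7, 12 and 18, 14 for day 18 against day 7 and 408 at fluid day 18 (main 555, 267, 166, 5 and 263). The other probe set turned the sign of Il6st, to -0.0557 (fluid cells against blood), 0.0272 (fluid cells against ankle) and -0.0131 (ankle against blood), and of Tnfrsf1a in fluid cells and ankle against blood, to -0.254 and -0.0607, none of them called. Under settings other than single left-out arrays, counts of all genes for ankle ran from 250 to 1274 at day 7 (main 555), 95 to 2592 at day 12 (267), 101 to 1540 at day 18 (166) and 6 to 526 at day 3 (19). For fluid they ran from 102 to 485 (211), 113 to 1638 (223) and 129 to 2752 (263), for fluid against blood from 2559 to 6148 (4853), fluid against ankle 1434 to 4661 (3145), ankle against blood 2084 to 4885 (3479) and the difference in responses 235 to 3531 (340). Without replicate 1 of blood day 3 that day reached 1101. Single left-out arrays gave 6 to 43, 359 to 705, 114 to 558 and 56 to 227 genes at ankle days 3, 7, 12 and 18, 0 to 7 for day 18 against day 7, 145 to 229, 141 to 248 and 136 to 368 at fluid days 7, 12 and 18, and 174 to 953 for the difference in responses. The Il6 call at ankle day 12 was lost in 14 of 19 left-out fits. Signal over background limits Il6 everywhere, Tnf in ankle, blood and fluid days 7 and 18, Il6ra in ankle, and Osmr in blood, ankle day 0 and fluid days 3 and 7. It also limits Socs3 in ankle day 0 and blood day 1, and Il6st in blood days 1, 3 and 18. Causes were not tested.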
